A study of Mus musculus with 44 samples.

Results

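Junctions whose prey lay outside the placed chromosomes were examined in 32 libraries of high-throughput genome-wide translocation sequencing (HTGTS). In HTGTS a primer sits beside a fixed double-strand break, the bait, and reads run across the junction into whatever DNA the broken end has been ligated to, the prey. The members were chosen by the name of the reference sequence alone. A junction was a member if its prey was assigned to any sequence other than chromosomes 1 to 19, X and Y, that is, to an unplaced contig (known sequence with no assigned chromosome), an unlocalized contig (assigned to a chromosome but not to a position in it) or the mitochondrial genome. In all, 3131 of 148726 junctions (2.11%) were members, of which 3119 lay on 17 contigs and 12 on mitochondrial DNA (chrM).

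All libraries came from mouse embryonic fibroblasts (MEFs) of strain C57BL/6 with genotype WT in the labels, and the bait break lay on chromosome 2 at position 13271321 (mm10). The 26 libraries with the AsiSI bait came from AsiSI-MEFs, which carry a 4-hydroxytamoxifen (4OHT)-controlled form of AsiSI, a restriction enzyme with many recognition motifs in the genome. All of these cells received 4OHT, together with DMSO (6 libraries) or CK-666 (6), wiskostatin (2) or DMSO (2), actin R62D-NLS (2) or empty vector (2), and NU7441 (3) or DMSO (3). The other 6 libraries came from WT MEFs in which Cas9 cut the bait site alone, with CK-666 (3) or DMSO (3), and their labels also name 4OHT. CK-666 inhibits the actin nucleator ARP2/3, wiskostatin inhibits its activator N-WASP, actin R62D-NLS is a nuclear actin that cannot polymerize, and NU7441 inhibits DNA-PKcs, a kinase of non-homologous end-joining. Libraries held between 362 and 18428 junctions. The labels only number the replicates, and the study describes those of the CK-666, wiskostatin, actin R62D-NLS and NU7441 experiments as biological replicates.

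Unplaced contigs of the mouse reference hold stretches that could not be assembled into a chromosome, often because they are repeats. The most abundant tandem repeat of mouse chromosomes is the major (gamma) satellite, which fills the pericentromeric heterochromatin beside each centromere and is built of AT-rich units that are themselves made of related shorter repeats. Because the chromosome assemblies leave these arrays out almost entirely, satellite DNA is represented in the reference by a few contigs and by short patches in the placed chromosomes. A junction assigned to such a contig therefore names a kind of sequence and not a chromosome.

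The contig with most members, chrUn_JH584304, repeated itself every 234 bases. One unit of this array, chrUn_JH584304:103803-104036 (plus strand, mm10, sequence from the RefSeq copy of that build), is shown whole because members were compared with it. It was chosen as the unit, of 196 compared, that a sample of the prey on this contig matched best (mean identity 92.7%). The unit was 64.1% A or T and held neither an AsiSI motif nor a telomeric hexamer.

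Unit: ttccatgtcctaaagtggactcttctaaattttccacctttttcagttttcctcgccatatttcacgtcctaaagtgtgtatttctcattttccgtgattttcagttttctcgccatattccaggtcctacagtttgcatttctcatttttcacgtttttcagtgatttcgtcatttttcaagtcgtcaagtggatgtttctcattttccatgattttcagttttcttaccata

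Prey were called satellite-like when the read matched this unit, in either direction, over at least 75% of its bases. By this measure 3081 of 3131 members (98.4%) were satellite-like. Because the unit was chosen on members of chrUn_JH584304, this share is not an independent test. The sites with most junctions on the 5 contigs with most members are shown next, each as 60 bases read in the direction of the prey, in capitals from the junction onwards. They show what the recurrent prey starts share.

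chrUn_JH584304, plus strand, 103506-103565: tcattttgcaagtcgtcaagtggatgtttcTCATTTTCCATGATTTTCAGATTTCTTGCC
chrUn_GL456392, minus strand, 17119-17178: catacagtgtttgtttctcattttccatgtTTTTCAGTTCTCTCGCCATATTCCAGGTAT
chrUn_GL456389, plus strand, 10590-10649: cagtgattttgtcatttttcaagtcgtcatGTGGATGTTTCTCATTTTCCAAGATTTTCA
chrUn_GL456383, plus strand, 30695-30754: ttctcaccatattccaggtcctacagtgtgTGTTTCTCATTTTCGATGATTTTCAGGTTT
chrUn_GL456396, minus strand, 15567-15626: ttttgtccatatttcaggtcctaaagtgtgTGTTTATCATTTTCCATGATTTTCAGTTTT

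All 5 sites held the letters TCATTTTC, which occur in 2 places of the unit. The motif was chosen after these sites were seen. It lay within the 60 bases around 44.0% of the 3081 satellite-like member junctions (either strand) and in 40.9% of 2117 satellite-like windows of 60 bases cut from the same contigs, so the letters are common in this satellite as a whole.

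Members were spread over few contigs. chrUn_JH584304 held 1275 junctions from 28 libraries, chrUn_GL456392 573 from 24, chrUn_GL456389 437 from 24, chrUn_GL456383 287 from 24 and chrUn_GL456396 199 from 23. chrUn_GL456390 held 173 junctions from 20 libraries, chrUn_GL456393 143 from 16, chr4_GL456216_random 13 from 5 and chrM 12 from 10. The 7 leading contigs together held 3087 junctions (98.6%), and the remaining 9 contigs, each with fewer than 10, held 19. On the 7 leading contigs the satellite-like share of members ranged from 98.6% on chrUn_GL456393 to 100% on chrUn_GL456390.

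The contigs differed more in how much satellite they contain than in the prey they gave. Of consecutive 60-base windows, 88.7% were satellite-like on chrUn_GL456390, 79.9% on chrUn_GL456383, 41.5% on chrUn_JH584304 and 13.9% on chrUn_GL456393. Even on chrUn_GL456393, where satellite is a minor part, 141 of 143 members were satellite-like. Per kb of satellite-like sequence, chrUn_GL456392 held 42.9 satellite-like members, chrUn_GL456389 30.9, chrUn_JH584304 26.6 and chrUn_GL456383 11.7. No replicate error was attached to these densities, and how far each contig allows reads to be placed uniquely was not tested.

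Nearly all junctions on chrUn_JH584304 lay in the array. Before position 68001 the bases 1 unit further on matched in only 23.6% to 27.8% of places, and these 68 kb held 30 junctions. Many of them lay in 1 window, 60001-62000, with 6 on Strand 1 and 11 on Strand -1. Since 1262 of the contig's 1275 members were satellite-like, some of the junctions before the array were satellite-like too. From 68001 onwards the identity between neighbouring units was 54.3% to 93.6% (median 73.9%), and 1245 of the 1275 junctions (97.6%) lay there, or 26.8 per kb. All 23 windows of 2 kb of the array held junctions, between 26 and 128 (median 46), and in all 23 more were on Strand 1, where the prey reads towards higher positions, than on Strand -1. The only gene annotated on this contig, AC149090.1, lay outside the array.

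**Figure D1:**
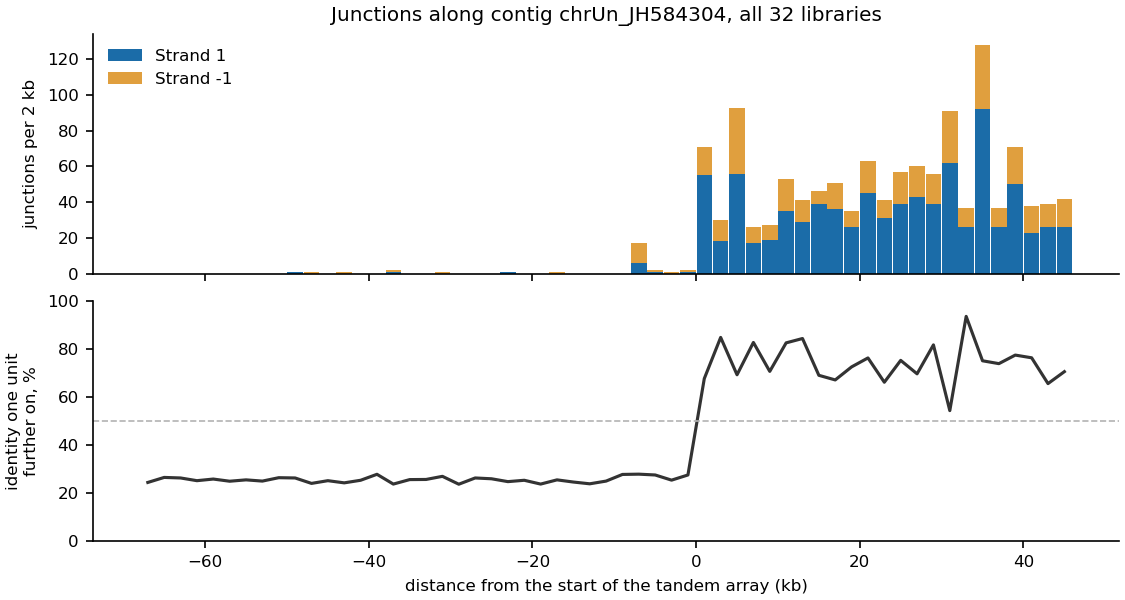
Junctions per 2 kb of contig chrUn_JH584304 (top; y axis, number of junctions in all 32 libraries, by Strand) and percent identity of each 2-kb window to the sequence 1 unit of 234 bases further on (bottom; the dashed line is the 50% used to call the array). The x axis is the distance in kb from the start of the array; junctions and identity rise at the same place, with 30 junctions before it and 1245 after.

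In the leading window of 1 kb of each of the 5 contigs, chosen for its number of junctions, no gene was annotated. That window held 117 junctions from 22 libraries on chrUn_JH584304 (103001-104000), 231 from 19 libraries on chrUn_GL456392 (22001-23000), 202 from 21 libraries on chrUn_GL456389 (10001-11000), 29 from 10 libraries on chrUn_GL456383 (28001-29000) and 78 from 16 libraries on chrUn_GL456396 (12001-13000). On chrUn_GL456392, chrUn_GL456389 and chrUn_GL456396 the leading window thus held 40.3%, 46.2% and 39.2% of the contig's junctions, against 9.18% on chrUn_JH584304 and 10.1% on chrUn_GL456383, where junctions were spread along the contig.

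Few members repeated a position. The 3131 members occupied 2620 positions and strands, and 126 of them (4.02%) repeated a position already counted in the same library. Across libraries, 281 positions were hit in at least 2 libraries, and these held 745 members (23.8%). The most shared was position 103536 of chrUn_JH584304 on Strand 1, the first site printed above, with 11 junctions from 11 libraries. The site of chrUn_GL456392 (17148, Strand -1) had 8 junctions from 4 libraries, that of chrUn_GL456389 (10620, Strand 1) 9 from 6, that of chrUn_GL456383 (30725, Strand 1) 5 from 4 and that of chrUn_GL456396 (15596, Strand -1) 8 from 5.

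A position on a contig is not always the only place that a prey read fits. The reference bases under the first 30 bases of the prey occurred exactly once in the contigs and chromosomes for 1598 members (51.0%). On chrUn_JH584304 this held for only 16.8% of members. On the other 6 leading contigs it held for 65.3% (chrUn_GL456396) to 83.1% (chrUn_GL456389). The same bases had an exact copy on a placed chromosome for 885 members (28.3%). Among the 7 leading contigs this was most often so on chrUn_JH584304 (41.6% of its members) and least often on chrUn_GL456383 (9.06%). The prey themselves matched their contig less closely than other prey matched their chromosome. The median identity was 95.6% for members and 100% for prey on placed chromosomes, and only 19.1% of members matched without a mismatch against 70.9% of placed prey. In all 21 libraries with at least 10 members the median identity of members was below that of placed prey more than 10 kb from any AsiSI motif. Satellite-like prey on placed chromosomes had a median identity of 95.4%, with 11.2% exact, close to the values of the members.

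Satellite-like prey were not confined to the contigs. A further 8855 satellite-like junctions more than 10 kb from the bait had been placed on chromosomes, so that the contigs held 25.8% of 11936 such junctions. The placed ones were concentrated in short patches. Of single windows of 10 kb, chr2:98660001-98670000 held 2817, chr14:19410001-19420000 held 2761 and chr9:35300001-35310000 held 663. The adjacent windows of chr9 from 3000001 to 3040000 held 529, 382, 592 and 411, together more than the last of these. The share of satellite-like prey that fell on contigs ranged from 8.09% to 40.0% over the 23 libraries with at least 30 such prey (median 24.4%). It moved with the sequencing run: the 8 libraries of the run that held the Cas9 libraries and the second wiskostatin pair had 8.09% to 18.8%, and the other 15 had 18.6% to 40.0%. The part of the run in this was not tested.

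The strand of the prey followed the direction of the satellite. On Strand 1 lay 69.0% of members on chrUn_JH584304, 79.8% on chrUn_GL456383 and 80.4% on chrUn_GL456393, but only 30.2% on chrUn_GL456396 and 32.4% on chrUn_GL456390. When the direction was taken along the printed unit in place of the contig, the 7 contigs no longer differed in this way. The prey then read along the unit in 69.7% of satellite-like members on chrUn_JH584304, 70.6% on chrUn_GL456392, 65.8% on chrUn_GL456389, 79.7% on chrUn_GL456383, 69.5% on chrUn_GL456396, 67.6% on chrUn_GL456390 and 80.9% on chrUn_GL456393. In all, 2178 of 3081 satellite-like members (70.7%) read along the unit, and 64.0% of the satellite-like prey on placed chromosomes did. Among the 21 libraries with at least 10 satellite-like members the share ranged from 40.0% to 84.6% (median 71.5%), and it was above 50% in 18 of them.

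The junctions were also uneven within the unit. With the unit cut into 9 bins of 26 bases, an even spread would put 11.1% of junctions in each bin. On the contigs other than chrUn_JH584304, bases 79 to 104 held 20.7% of 1819 satellite-like members and bases 209 to 234 held 4.62%. On chrUn_JH584304 the fullest bin was bases 53 to 78 with 14.1% of 1262, and bases 209 to 234 again held fewest, 6.10%. Satellite-like prey on placed chromosomes were spread more evenly, from 8.42% in bases 209 to 234 to 13.1% in bases 53 to 78. Counting each position once changed these shares by little, to 21.3% and 5.08% for the first pair. The same units are read many times over in these sums, and where in the unit a read can be placed uniquely was not tested.

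**Figure D2:**
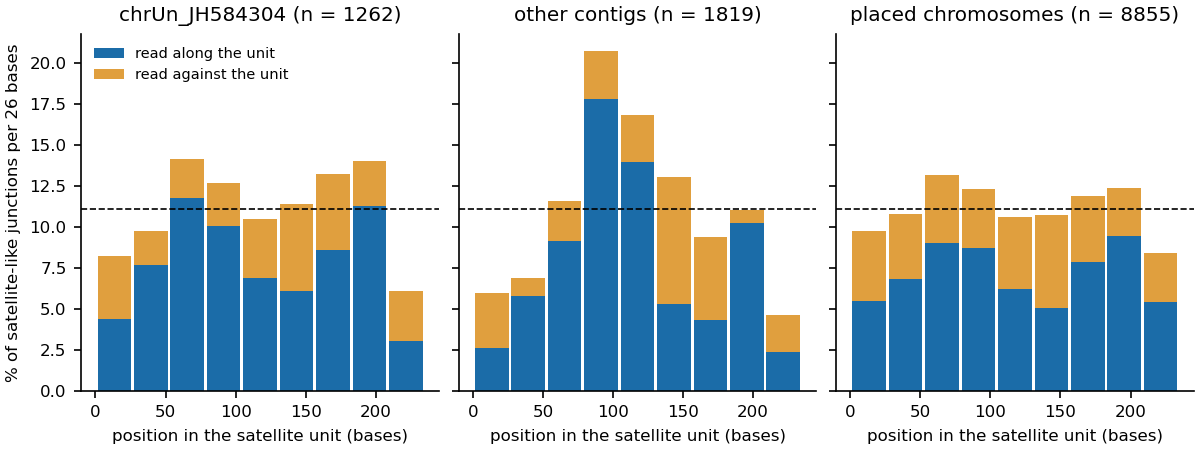
Position of satellite-like junctions in the 234-base unit (x axis) as percent of the junctions in each set (y axis, bins of 26 bases) for chrUn_JH584304 (n = 1262), the other contigs (n = 1819) and placed chromosomes (n = 8855), split by whether the prey reads along or against the unit. The dashed line is an even spread (11.1%); the highest bar is bases 79 to 104 of the other contigs, 20.7%.

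The share of members was computed over all junctions more than 10 kb from the bait break. It varied widely between replicates, from 0.0125% (1 of 8024 junctions, empty vector replicate 1) to 13.3% (296 of 2224, NU7441 replicate 1), with a median of 0.697%. The 3 libraries with most members, DMSO control of NU7441 replicate 1 (665), CK-666 replicate 3 (550) and DMSO replicate 3 (343), held 49.8% of all. The highest shares came in pairs of the same replicate number and sequencing run. NU7441 replicate 1 and its control had 13.3% and 12.7%, and CK-666 replicate 3 and its control had 8.25% and 5.56%. The share of satellite-like prey, placed or not, was highest in the first 3 of these libraries too, at 38.8%, 38.0% and 29.7%, and went down to 0.140% in actin R62D-NLS replicate 1.

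**Figure D3:**
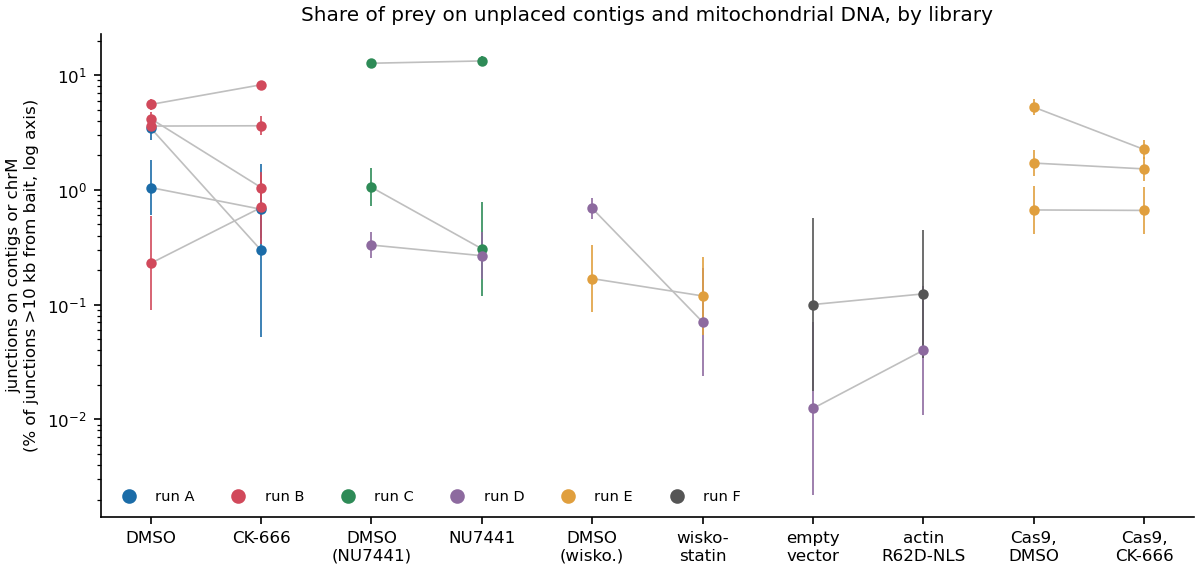
Members as percent of the junctions more than 10 kb from the bait (y axis, log scale) in each library, by group (x axis). Bars are 95% Wilson intervals, which cover counting error only, colours are sequencing runs and grey lines join libraries of the same replicate number. Shares span 0.0125% to 13.3%, and groups overlap within every experiment with 3 or more pairs.

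Whether ARP2/3 inhibition changed the share of members among a library's junctions was asked first with the AsiSI bait. A share cannot show a rise or fall in translocations that is common to all prey. The study compared frequencies normalized to bait-only reads, which were not computed here. With DMSO the shares of replicates 1 to 6 were 1.05%, 3.46%, 5.56%, 4.18%, 0.229% and 3.60% (mean 3.01% ± 2.00, SD, n = 6). With CK-666 they were 0.678%, 0.298%, 8.25%, 1.05%, 0.703% and 3.62% (mean 2.43% ± 3.09, SD, n = 6). Members took a smaller part under CK-666 in 3 pairs and a larger part in 3, and the groups overlapped over almost their whole range. The mean log2 ratio over pairs was -0.58 ± 1.67 (SD, n = 6 pairs), which did not differ from 0 in an exact two-sided sign-flip test (p = 0.438, adjusted p = 0.656 over all members, nuclear contigs and chrM). The lowest value with CK-666, replicate 2, rested on 1 member of 336 junctions (95% Wilson interval 0.0526% to 1.67%). Within the run of replicates 1 and 2 the mean log2 ratio was -1.80, and within that of replicates 3 to 6 it was 0.035.

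With the Cas9 bait the shares under DMSO were 5.27%, 1.71% and 0.669% (mean 2.55% ± 2.41, SD, n = 3) and under CK-666 2.25%, 1.52% and 0.663% (mean 1.48% ± 0.796, SD, n = 3). Members took a smaller part under CK-666 in all 3 pairs, but in replicate 3 by under 0.01 percentage points, and the groups overlapped. The mean log2 ratio was -0.47 ± 0.66 (SD, n = 3 pairs; exact sign-flip p = 0.25, the smallest that 3 pairs allow; adjusted p = 0.75). The effect of CK-666 with the AsiSI bait minus that with the Cas9 bait was -0.11 on the log2 scale (exact permutation p = 0.929).

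NU7441 gave shares of 13.3%, 0.307% and 0.267% against 12.7%, 1.05% and 0.331% in its DMSO controls. The replicates differed far more than the arms, and the mean log2 ratio was -0.62 ± 0.90 (SD, n = 3 pairs; exact sign-flip p = 0.5; adjusted p = 0.5), with 2 pairs lower and 1 higher. Wiskostatin libraries had 0.0706% (3 members) and 0.119% (6) against 0.690% (83) and 0.169% (8) in their controls. Both were lower, with log2 ratios of -3.08 and -0.47, and no test was made with 2 pairs. Actin R62D-NLS libraries had 2 members each (0.040% and 0.124%) and empty vector libraries 1 each (0.0125% and 0.1002%), too few to compare.

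Cutting the bait with Cas9 alone gave a mean share of 2.55%, against 3.01% with AsiSI under DMSO. The difference of the mean log2 shares was -0.18 (exact permutation test over 3 against 6 libraries, p = 0.905, adjusted p = 0.940). Its size depended on the denominator. Placed distal prey, those more than 10 kb from the bait and from any AsiSI motif, made up 17.0% to 31.3% of placed prey more than 10 kb from the bait with AsiSI and 94.4% to 98.4% with Cas9. As a share of members and distal prey alone, members were 11.8% ± 6.69 with AsiSI (SD, n = 6) and 2.63% ± 2.50 with Cas9 (SD, n = 3), and the difference was -2.18 on the log2 scale (exact permutation p = 0.0952). Its sign also depended on the libraries taken. Against all 13 AsiSI libraries with DMSO or empty vector it was 1.11 (exact permutation p = 0.5), and against the only AsiSI control of the same sequencing run, the second wiskostatin control with 0.169%, it was 3.37. The bait enzyme cannot be told apart from the cells and the run. In Cas9 replicate 2 with DMSO 51.6% of the placed distal prey were telomeric reads, which enlarge the denominator, and without telomeric reads the difference was 0.19.

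The make-up by contig was alike in libraries with very different shares. Over the 15 AsiSI libraries with at least 10 members chrUn_JH584304 took 36.7% ± 10.2 of members (SD; 16.7% to 47.5%) and over the 6 Cas9 libraries 39.7% ± 4.99 (32.7% to 47.7%). chrUn_GL456392 took 21.2% ± 8.01 and 15.7% ± 8.14, and chrUn_GL456389 15.5% ± 7.40 and 15.03% ± 6.12. chrUn_GL456383 took 9.87% ± 4.95 and 6.06% ± 4.17, and chrUn_GL456396 6.93% ± 2.09 and 8.41% ± 8.60. For all 5 contigs the difference between the baits was within 1 SD of the AsiSI libraries, and it was not tested.

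**Figure D4:**
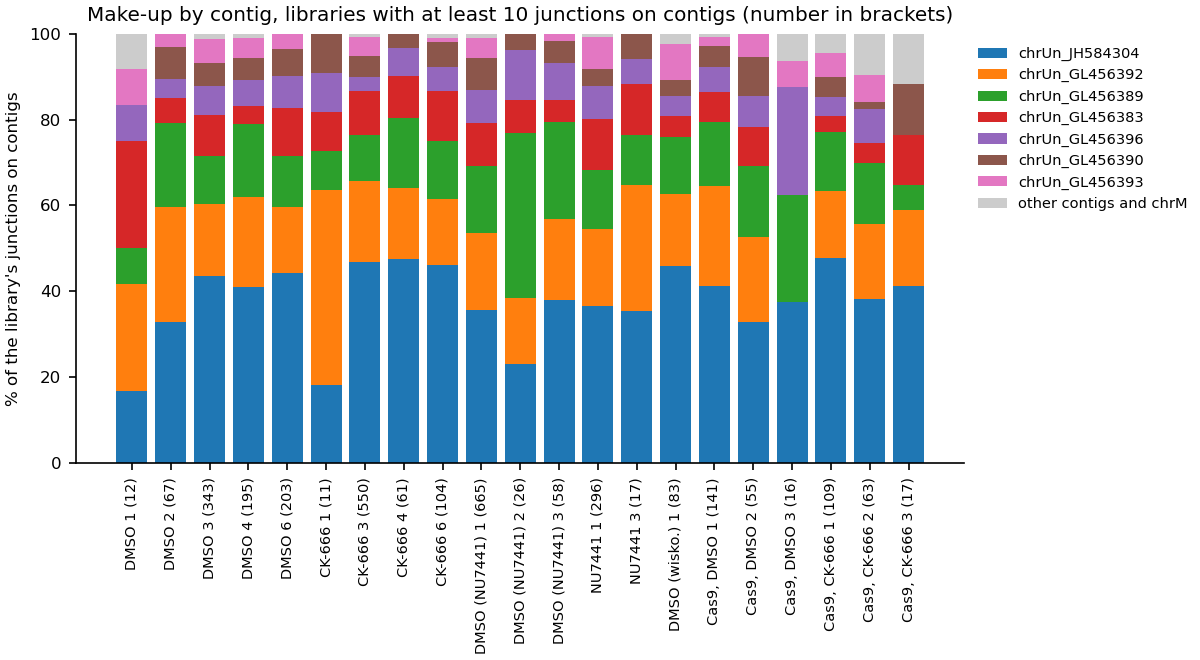
Percent of each library's members (y axis) on the 7 leading contigs and on all other sequences, for the 21 libraries with at least 10 members (x axis, group and replicate with the number of members in brackets). chrUn_JH584304 takes the largest part in most libraries; the libraries that stand apart have few members, such as DMSO replicate 1 with 12.

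The way bait and prey were joined was read from the overlap of their alignments on the read. An overlap is sequence shared by both ends (microhomology), a blunt junction has none, and an insertion is read sequence that belongs to neither alignment. Members were compared within each library with placed distal prey. This set includes the satellite-like prey on placed chromosomes that lie there, 18.9% of distal prey over all libraries. The part differed widely between libraries. It was 2.71% to 48.6% over the 6 DMSO libraries of the AsiSI bait, 5 of which are compared here. Over the 3 DMSO libraries of the Cas9 bait it was 6.02% to 22.8%. In the 5 DMSO libraries of the AsiSI bait with at least 10 members, overlaps of at least 6 nt made up 0%, 0%, 0%, 0.513% and 0.493% of members, against 21.8%, 13.7%, 15.9%, 18.0% and 15.9% of distal prey. The ranges did not overlap. Insertions made up 41.7%, 46.3%, 49.3%, 44.6% and 53.2% of members against 34.7%, 33.9%, 27.9%, 27.4% and 29.5% of distal prey, again without overlap. The mean differences were -16.8 ± 3.06 percentage points for long overlaps and 16.3 ± 6.79 for insertions (SD, n = 5; adjusted p = 0.125 each in the exact sign-flip test, whose smallest unadjusted p of 0.0625 both reached). Overlaps of 1 to 5 nt (33.7% against 36.9%) and blunt junctions (19.1% against 15.4%) differed by less or with mixed sign (adjusted p = 0.167 and 0.438 in the exact test). With satellite-like prey taken out of the distal set, a choice made after seeing the data, the differences were -26.7 ± 5.25 points for long overlaps, 23.8 ± 13.4 for insertions and 5.53 ± 7.65 for blunt junctions (SD, n = 5; exact sign-flip, adjusted p = 0.0833 each).

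With 15 AsiSI libraries of all treatments, where the test has room, the difference was -15.1 points for long overlaps and 17.3 points for insertions (exact sign-flip, adjusted p = 0.000122 for both). These libraries include treated and control libraries of the same replicate number and run. The test counts them as independent, so its p-values may be too small. With the Cas9 bait under DMSO no member of 3 libraries had an overlap of 6 nt or more, against 4.95%, 3.32% and 16.3% of distal prey, and insertions were 41.8%, 50.9% and 62.5% of members against 16.9%, 48.5% and 16.2% (exact sign-flip, adjusted p = 0.5 for both, with 3 libraries).

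Satellite-like prey on placed chromosomes shared the scarcity of long overlaps and, in part, the excess of insertions. In the same 5 DMSO libraries they had overlaps of at least 6 nt in 0.501% ± 0.341 (SD), almost as few as members, and insertions in 38.5% ± 6.98, between members (47.0% ± 4.42) and distal prey (30.7% ± 3.41). With the Cas9 bait their mean share of insertions was 33.8% ± 1.20, against 51.8% ± 10.4 in members and 27.2% ± 18.5 in distal prey (SD, n = 3). By replicate it was 34.2%, 34.7% and 32.4%. These values lay between members and distal prey in replicates 1 and 3, and below both in replicate 2. Among the 7 leading contigs, insertions were least frequent on chrUn_JH584304, 34.5% of junctions, and made up 47.8% to 68.5% on the other 6. The median aligned prey was 73 bases on chrUn_JH584304 and 37 to 51 on the other 6. In the 5 AsiSI libraries it was 31, 39, 55, 50 and 61 bases in members, against 44, 46, 75, 61 and 72.5 in distal prey. With Cas9 it was 79, 56 and 92.5 against 91, 75 and 89. The part of prey length in the insertions was not tested.

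**Figure D5:**
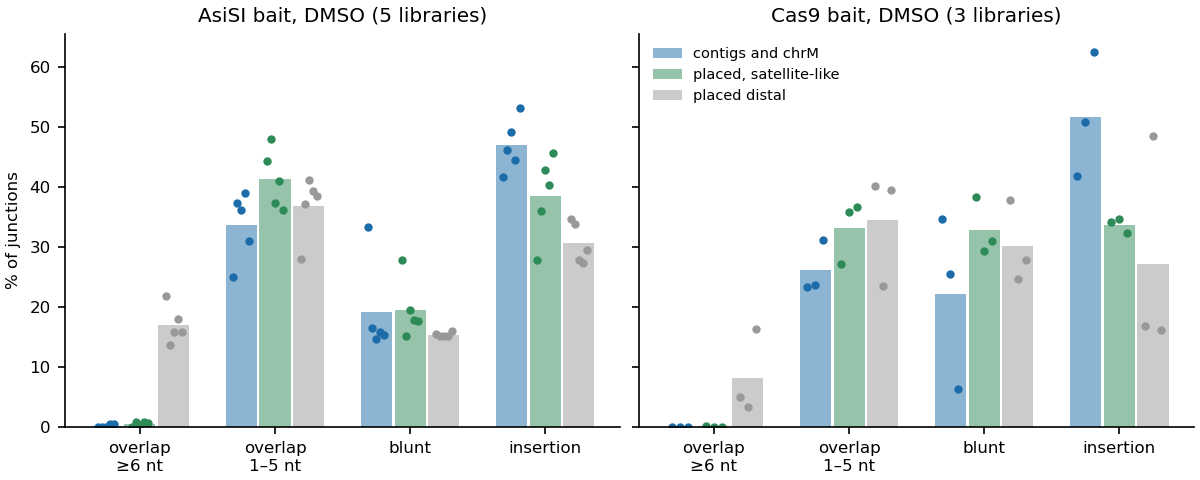
Percent of junctions (y axis) in 4 classes of overlap between bait and prey (x axis) for members, satellite-like prey on placed chromosomes and placed distal prey, under DMSO with the AsiSI bait (5 libraries with at least 10 members) and the Cas9 bait (3 libraries). Points are libraries and bars their means; long overlaps are near 0 in both satellite sets, and insertions are highest in members (47.0% against 30.7% of distal prey with AsiSI).

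Insertions at members were short, with a median of 5 nt and a maximum of 30 nt, the longest that the tables hold, and 28.0% had at least 10 nt. The inserted bases were set against the contig bases directly before the prey, over insertions of at least 3 nt. In members 48.1% of 10687 inserted bases equalled the contig base at that place, against 29.98% of 60432 in distal prey that were not satellite-like. At least 50% of the bases matched in 583 of 1053 insertions (55.4%) of members and in 15.3% of those of such distal prey. Over the 15 libraries with at least 10 insertions in each set, the share of matching bases ranged from 41.1% to 61.8% in members and from 24.9% to 35.2% in distal prey, so that the ranges did not overlap. Satellite-like prey on placed chromosomes gave 46.3%. Matches to the continuation of the bait were 20.8% in members. So at many of these junctions the bases counted as inserted resembled the satellite next to the aligned prey. One insertion from each of the first 2 contigs, chosen for its many matching bases among insertions of at least 15 nt, is printed with the contig below it, in capitals where both are the same.

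Inserted, DMSO replicate 2: GTGCATTTCgCATTccgCAt
chrUn_JH584304, plus strand, 100430-100449: GTGCATTTCtCATTtttCAc
Inserted, DMSO replicate 3: CACACTtTAcGACgTGa
chrUn_GL456392, minus strand, 23263-23279: CACACTgTAgGACcTGg

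The first pair matched at 15 of 20 bases and the second at 13 of 17. The last inserted base never equalled the contig in any set, which is fixed by where the alignments end.

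Telomeric reads, those with at least 3 telomeric hexamers after the bait, were rare among members: 7 of 3131 (0.224%), against 4.38% of placed prey more than 10 kb from the bait. Nearly all members match a satellite unit without a telomeric hexamer, and 3096 members held none in the read. The comparison therefore had little room to come out otherwise. In the 5 DMSO libraries of the AsiSI bait no member was telomeric and between 0% and 2.19% of distal prey were (difference -0.60 points, adjusted p = 0.25, exact sign-flip). The share of Strand 1 in the same libraries was 59.6% ± 4.66 in members and 48.1% ± 0.771 in distal prey (SD, n = 5), higher in all 5 (difference 11.4 points, adjusted p = 0.125, exact sign-flip). With the Cas9 bait it was 64.5%, 63.6% and 37.5% in members and 48.5%, 48.7% and 50.4% in distal prey, higher in 2 libraries and lower in 1 (difference 6.02 ± 16.4 points, SD, n = 3; exact sign-flip, adjusted p = 0.5). Among the 7 leading contigs Strand 1 ranged from 30.2% on chrUn_GL456396 to 80.4% on chrUn_GL456393. These differences therefore depend on how each contig is written and do not measure direction along the satellite.

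Of the 7 telomeric members, 6 lay at 2 neighbouring positions of chrX_GL456233_random, a contig of the X chromosome with 8 junctions in all. They came from 2 libraries, 4 from Cas9 with CK-666 replicate 2 and 2 from NU7441 replicate 2. The contig there carries a degenerate run of the telomeric CCCTAA strand, shown with the prey side in capitals.

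chrX_GL456233_random, plus strand, 9731-9790: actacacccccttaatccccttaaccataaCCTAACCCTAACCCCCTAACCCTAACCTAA

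Another contig without large arrays, chr4_GL456216_random, held 13 junctions between 49135 and 49500, all satellite-like, in a small patch of the unit (0.360 kb of satellite-like windows on the whole contig). They came from 5 AsiSI libraries, with 6 junctions in the DMSO control of NU7441 replicate 1, the library with most members (665). No Cas9 library held more than 141 members, so the lack of such junctions there is not read as a difference. Its most frequent site had 3 junctions from 2 libraries and is shown with the prey side in capitals.

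chr4_GL456216_random, plus strand, 49280-49339: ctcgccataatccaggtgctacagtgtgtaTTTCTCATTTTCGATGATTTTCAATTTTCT

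Mitochondrial prey were few: 12 junctions from 10 libraries, 7 with the AsiSI and 5 with the Cas9 bait, and never more than 3 in a library. Mitochondrial DNA is a small circular genome outside the nucleus, of which nuclear chromosomes also carry partial copies. None of these prey was satellite-like, and 8 of the 12 matched the mitochondrial reference exactly. They lay in mt-Co1 (3 junctions) and mt-Nd4 (3), which encode subunits of cytochrome c oxidase and of complex I, and singly in mt-Nd1, mt-Nd6, mt-Cytb, mt-Rnr2, mt-Tl1 and an unannotated stretch. The first 30 bases of the prey had an exact copy on a placed chromosome in 2 of the 12.

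In the mitochondrial prey, overlaps of at least 6 nt were seen in 5 of 12 junctions, of 1 to 5 nt in 3 and insertions in 4, none being blunt. On the nuclear contigs with at least 10 junctions, 0% to 7.69% of junctions per contig had overlaps of at least 6 nt, and 15.4% to 44.1% had overlaps of 1 to 5 nt. In distal prey that were not satellite-like, the mean share of such long overlaps under DMSO was 26.9% with AsiSI (19.8% to 34.4%, 5 libraries). With Cas9 it was 9.13% (3.67% to 17.4%, 3 libraries), a range that overlaps that of the contigs. The contig values pool all 32 libraries, and the 7.69% is 1 of 13 junctions on chr4_GL456216_random. The differences from the mitochondrial prey were not tested. One mitochondrial position was hit in 2 libraries, chrM:11453 in mt-Nd4 on Strand 1, in DMSO replicate 5 and in wiskostatin control replicate 1. Both reads are printed from 15 bases before the prey, with the bases aligned to bait and prey alike in capitals.

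DMSO replicate 5: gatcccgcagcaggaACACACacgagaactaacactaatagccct
Wiskostatin control replicate 1: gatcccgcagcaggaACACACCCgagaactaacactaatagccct

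The overlap of the alignments was 6 nt in the first and 8 nt in the second, whose prey alignment held a mismatch (98.7% identity). That mismatch lies within the 8 bases, so not all of them are shared with the mitochondrial reference. The unbroken shared stretch is the same 6 bases, ACACAC, in both reads. In these reads the bait ended 14 and 12 bases before the break.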

How the data were processed

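The authors amplified from the bait, ran the amplicons on an Illumina MiSeq, mapped the reads to mm10 (Burrows-Wheeler Aligner) and applied the HTGTS pipeline (versions not given in the sources used here; the submitters' notes also list hg19 for 12 libraries). The deposited tables hold 1 junction per line after duplicate removal, as genome positions, Strand and read positions, with no score or normalization; 12 Hi-C samples of 44 were not analysed here. Members were prey not on chromosomes 1 to 19, X or Y. Shares are k of n junctions more than 10 kb from the break, and ratios use log2((k + 0.5)/(n + 1)). Contigs were read from RefSeq GRCm38.p6, matched to the tables' names by the reads. Pairs share replicate number and sequencing run; centred 1-Mb profiles of same-numbered libraries correlated at 0.0248 to 0.619 for CK-666, 0.351 to 0.859 for Cas9, 0.273 to 0.721 for NU7441. Tests were exact sign-flip or permutation tests, two-sided, with Benjamini-Hochberg adjustment at 0.05. Contigs with at least 10 junctions were named, the first 5 in depth. Members and lists were chosen with earlier results of these data known. The alternatives tried were other denominators, positions counted once, percentage points, telomeric reads left out, prey identity of at least 90% (chosen after seeing the data), no replicate block, distal prey without satellite-like prey (also chosen after seeing the data), runs or libraries apart. Analyses used Python 3.11.15, numpy 2.4.6, pandas 2.3.3, scipy 1.17.1 and matplotlib 3.10.9. Intervals are 95% Wilson intervals and cover counting error only.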

Additional observations from a re-analysis of the deposited data

Results flagged for a closer look

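One library stood apart by a test for a single far value in a group of 4 to 10, which chance passes in about 1 of 20 groups. In CK-666 replicate 2, the share of satellite-like prey that lay on contigs was 100%, a value that rests on a single satellite-like junction.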

How the results depend on the processing

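All members of a library share its depth, and 11 of 32 libraries held fewer than 10 members, so treatment effects below the spread between replicates were not detectable. For CK-666 with the AsiSI bait the exact p stayed between 0.25 and 0.938 over the alternatives; with 3 pairs (Cas9 bait, NU7441) no setting could pass 0.05, so those p-values say nothing about stability. The sign changed for CK-666 with the AsiSI bait in replicates 3 to 6 (0.035 on the log2 scale) and for the share of satellite-like prey on contigs (0.013, chosen after seeing the data). For the Cas9 against the AsiSI bait it changed without telomeric reads (0.19), with all AsiSI control libraries (1.11) and with the AsiSI control of the same run (3.37), and it kept its sign but grew from -0.18 to -2.18 (exact permutation p = 0.0952) over members and distal prey; the cause was not tested. Without pairing, exact permutation p was 0.552 for CK-666 with AsiSI, 0.6 with Cas9 and 0.8 for NU7441, and it changed no call. Leaving out 1 replicate gave -0.999 to -0.096 for CK-666 with AsiSI, -0.70 to -0.093 with Cas9, -0.96 to -0.11 for NU7441, -3.08 to -0.47 for wiskostatin, 0.047 to 1.42 for actin R62D-NLS and -0.93 to 0.53 for the baits, where the sign changed without DMSO replicate 3 (0.11) or 4 (0.025) or Cas9 replicate 3 (0.53). With all 15 AsiSI libraries long overlaps (-15.1 points), insertions (17.3), telomeric reads (-1.89) and Strand 1 (15.6) passed the threshold, which 5 libraries cannot reach. These 15 include treated and control libraries of the same replicate number and run, which the test counts as independent. Strand 1 also depends on the direction in which each contig is written, so it does not measure direction along the satellite. The telomeric difference had little room to come out otherwise, since nearly all members match a unit without a telomeric hexamer.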
